A study of Mus musculus with 20 samples.

Results

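NIH3T3 cells, an immortalised line of mouse embryonic fibroblasts, were moved from 5% CO2 to 1% CO2 for 2 h and compared with control cells collected at 0 h. This early response to low CO2 (hypocapnia) rests on 8 of the 20 sequenced libraries, the 4 labelled 1% CO2 at 2 h and the 4 labelled 5% CO2 at 0 h, and on the 9726 genes, of 11075 in the table, whose mean normalized count over the 20 libraries was at least 5. All cells were grown in dishes in DMEM with 10% FBS and 18 mM sodium bicarbonate, and were treated on day 4 of plating. The 0 h cells stayed at 5% CO2, and the low CO2 cells went to another incubator at 1% CO2 with O2 and temperature held constant. Cells at 1% CO2 for 4 h, and cells that stayed at 5% CO2 but received NaOH (18 mM) for 2 h, with 4 libraries each, are used below where they bear on a gene of the 2 h response. Untreated libraries of 2 h were not analysed here. The change in CO2 therefore cannot be told apart from elapsed time or from the move to another incubator. A line is 1 cell source. The authors describe the 4 of a group as biological replicates, and the labels do not say whether these were separate cultures. The p-values therefore measure the spread between these libraries only.

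Dissolved CO2 and bicarbonate together set the pH of a culture medium, and removing CO2 makes the medium more alkaline. Fibroblasts answer many surface stimuli, serum among them, with a fast wave of transcription. The ERK kinase cascade and the serum response factor SRF switch on early transcription factors, these are followed within hours by growth factors, adhesion genes and feedback inhibitors of the same cascade, and transcripts that accumulate in resting cells, such as targets of the FOXO factors, decline. The groups of genes below include genes of these steps, in another order, and the chain itself was not tested.

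Bulk MARS-seq counts unique molecular identifiers at the 3′ ends of transcripts, so that PCR copies of 1 molecule count once. Total counts were 2815294 to 5640523 per library at 0 h and 3010000 to 3976501 at 2 h. A normalized count here is a count scaled by library size and TMM factor to the mean effective library size, and a log2FC is the log2 ratio of 2 h to 0 h, so that a log2FC of 1 is a fold of 2. Genes were tested with edgeR's quasi-likelihood model and called higher or lower where the p adjusted by the Benjamini-Hochberg method was 0.05 or less and the log2FC was 1 or more in either direction. At the edge of the filter, Gm10364 (mean 5.0036) was tested and 9530091C08Rik (mean 4.9997) was not. All 12 fibroblast markers were in the table, with summed normalized counts of 132000 to 148000 at 0 h and 124000 to 149000 at 2 h, and none was called. Of markers of other cell types, 2 of 8 epithelial ones (Cdh1 and Krt14, 769 to 893 summed at 0 h and 527 to 614 at 2 h), 4 of 10 immune ones (210 to 260 and 186 to 271), 1 of 8 endothelial, 1 of 8 fat and 2 of 8 muscle ones were in the table. Fewer cells that express a gene and less RNA of it per cell cannot be told apart in such bulk samples, and the part of these markers in the results was not tested.

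Of the 4 libraries at 2 h, replicate 3 stood apart from the other 3. Over the 6165 genes with a mean of at least 50 at 2 h, the SD of its log2 difference from the mean of the other 3 libraries was 0.33, against 0.203 to 0.216 for replicates 1, 2 and 4 and 0.17 to 0.191 for the 0 h libraries. It was kept in the fit, its depth of 3487796 counts was within the range of its group, and results that rest on it are given with and without it.

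After 2 h of 1% CO2, 307 genes (3.16% of the genes tested) were higher and 231 (2.38%) were lower than at 0 h, 538 genes (5.53%) in all. At an adjusted p of at most 0.05 whatever their fold, 16% were higher and 12.4% were lower. Every count of called list members below stands against these shares. Most changes were between 2-fold and 4-fold. A log2FC of 2 or more was found for 46 of the genes called higher, and a fall of that size for 10 of those called lower. Genes called higher had a median normalized count of 90.2 at 2 h, close to the 97.3 of all tested genes in their higher group, whereas genes called lower had a median of 26.3 at 0 h. In 290 of the 307 and 205 of the 231, the ranges of the 2 groups did not overlap, which was so, at any size of change, for 15.8% of all tested genes in the upward and 13.1% in the downward direction. The median log2FC of all tested genes was -0.01. Without replicate 3, 309 genes were called higher and 218 lower, of which 282 and 180 were also called with it.

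**Figure D1:**
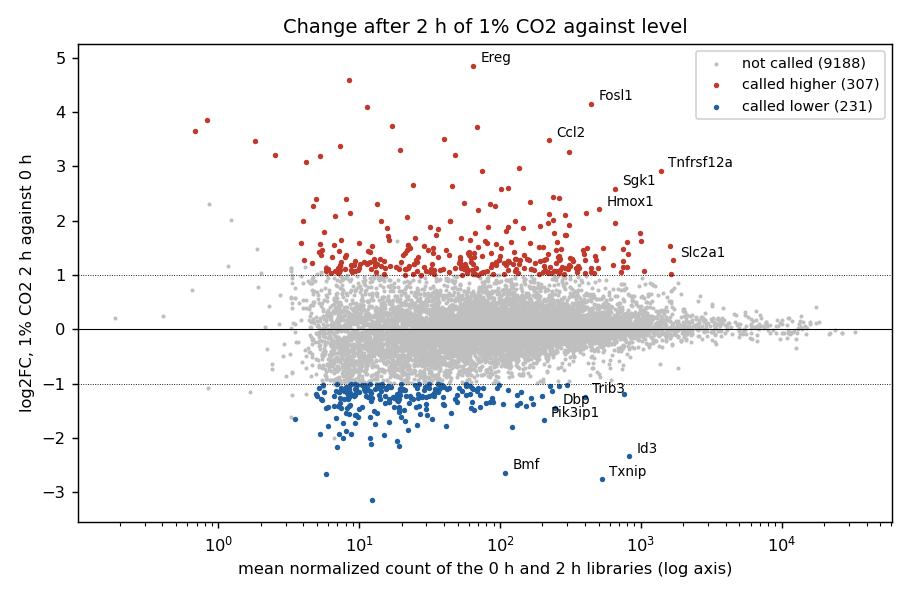
Log2FC of each of the 9726 tested genes at 2 h of 1% CO2 against 0 h (vertical axis) by its mean normalized count over the 8 libraries (horizontal log axis). Red points are the 307 genes called higher, blue points the 231 called lower, grey points the others, and dotted lines mark a log2FC of 1 and -1. Of the named points, Ereg and Fosl1 lie highest and Txnip lies lowest.

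Growth factor genes were prominent among the genes that rose. Of 17 tested ligands and cytokines, 6 were higher (35.3%, against 3.16% of all tested genes) and none was lower, with a median log2FC of 0.77. Ereg encodes epiregulin, a ligand of the EGF receptor. Its normalized counts were 5.02, 3.19, 3.34 and 4.80 at 0 h and 130, 125, 155 and 90.9 at 2 h, a log2FC of 4.86 ± 0.27 (SE, n = 4 and 4) and the largest of all tested genes. Hbegf, another EGF receptor ligand, had 18.9, 18.3, 13.4 and 17.6 at 0 h and 137, 132, 130 and 132 at 2 h (log2FC 2.92 ± 0.13, adjusted p = 2.1e-19 from edgeR's test). The 4 libraries at 2 h lay far above all 4 at 0 h for both ligands, and the rule that named them for large changes required no overlap. Clcf1, a cytokine of the interleukin 6 family, rose less, with a log2FC of 1.04 ± 0.10. Further called members, which fell outside the rule for naming genes and were chosen after their values were seen, were Inhba, a subunit of activin (log2FC 1.61), and Bdnf, a neurotrophin (1.42).

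Feedback inhibitors of the ERK cascade and ETS factors, which ERK activity induces, had the highest median of the 48 lists. Of 21 tested members 10 were called higher (47.6%, against 3.16% of all tested genes) and none was called lower (median log2FC 1.02). At an adjusted p of at most 0.05 whatever their fold, 15 were higher and 3 lower, against 16% and 12.4% of all tested genes. The 3 lower were Dusp8 (log2FC -0.84), Dusp16 (-0.56) and Dusp1 (-0.49), named after their values were seen. In this list 10 were called higher whichever of the 8 libraries was left out. Dusp6, a phosphatase that inactivates ERK, had 30.1, 29.5, 29.0 and 34.4 at 0 h and 240, 224, 279 and 229 at 2 h (log2FC 2.98 ± 0.15, adjusted p = 3.5e-18, edgeR). Errfi1, an inhibitor of the EGF receptor, had 35.7, 28.7, 23.4 and 24.8 at 0 h and 154, 161, 237 and 147 at 2 h, with the highest value in replicate 3 (log2FC 2.59 ± 0.17). Phlda1 was evenly higher, from 135 to 173 at 0 h to 654 to 673 at 2 h (log2FC 2.15 ± 0.14). Spry4, a Sprouty inhibitor of receptor tyrosine kinase signalling, and the ETS factors Etv4 and Etv5 were also called but were low. Spry4 had 0 to 1.11 at 0 h and 10.5 to 22.3 at 2 h, Etv4 had 0 to 1.11 and 4.05 to 5.61, and Etv5 had 2.23 to 4.46 and 26.0 to 46. These 3 were chosen after their values were seen.

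Early response transcription factors changed next to these. Of 21 tested genes, 9 were higher (42.9%) and 1 was lower (4.76%), against 3.16% and 2.38% of all tested genes. Their median log2FC was 0.79. At an adjusted p of at most 0.05 whatever their fold, 16 were higher and 2 lower, against 16% and 12.4% of all tested genes. Fos (log2FC 0.38), Atf3 (0.01) and Nr4a2 (-0.36) passed neither threshold, and Jund was lower but under the fold threshold (-0.37). These members were named after their values were seen. Fosl1, a FOS-family subunit of the AP-1 factor, had 39.6, 59.0, 56.8 and 36.8 at 0 h and 850, 856, 805 and 856 at 2 h (log2FC 4.16 ± 0.12, adjusted p = 7.6e-24, edgeR). All 4 values at 2 h were close together and far above those of 0 h, and the naming rule required no overlap here too. Maff, a small MAF factor, had 7.80, 10.4, 8.91 and 10.4 at 0 h and 93.6, 93.1, 80.7 and 79.7 at 2 h (log2FC 3.21 ± 0.19). The zinc finger factors Egr2 (27.2 to 30.1 at 0 h, 114 to 172 at 2 h) and Egr3 (1.11 to 3.20 and 23.6 to 36.2), chosen after their values were seen, were higher without overlap. Myc, which drives genes of cell growth, had 200, 174, 190 and 196 at 0 h and 429, 429, 390 and 475 at 2 h (log2FC 1.18 ± 0.09). Nr4a3 is counted among the 9 higher genes, but it was at 0 in all 4 libraries of 0 h and at 0.927 to 2.43 at 2 h, so no fold is given. The list's median was 0.72 without it, and 8 genes were called higher without replicate 3. Fosb, by contrast, was the 1 member called lower, at 2.39 to 8 at 0 h and 0.810 to 2.78 at 2 h, levels so low that its adjusted p of 0.035 (edgeR) ranged up to 0.12 when single libraries were left out.

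Arc, an early gene best known from neurons and a target of SRF and ERK there, had 10.0, 8.77, 7.80 and 10.4 at 0 h and 138, 113, 128 and 128 at 2 h (log2FC 3.73 ± 0.19). Hmga2, a chromatin protein of growing embryonic cells, had 3.20 to 8.36 at 0 h and 60.6 to 86.2 at 2 h (log2FC 3.51 ± 0.25). Among the KLF and SP factors, in contrast, 1 of 13 tested members was higher (Klf16, 71.7 to 92.0 at 0 h and 227 to 271 at 2 h) and 1 was lower (Klf11, 26.2 to 35.1 and 3.37 to 11.6, log2FC -2.14 ± 0.30), with a list median of -0.21.

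SRF, together with its actin-sensing cofactors, drives genes of the actin cytoskeleton through a sequence called the CArG box. Of 25 tested SRF and actin genes, 9 were higher (36%, against 3.16% of all tested genes) and none was lower (median log2FC 0.63). At an adjusted p of at most 0.05 whatever their fold, 19 were higher, against 16% of all tested genes. Srf itself, counted in the list of early factors and not in this one, had 128, 120, 119 and 130 at 0 h and 387, 406, 349 and 375 at 2 h (log2FC 1.60 ± 0.10, adjusted p = 7.8e-15, edgeR). Tagln, the actin-binding protein transgelin, had 115, 121, 92.5 and 105 at 0 h and 452, 432, 466 and 527 at 2 h (log2FC 2.10 ± 0.10). Lima1, an actin cross-linking protein, had 407, 467, 441 and 462 at 0 h and 1530, 1527, 1622 and 1426 at 2 h (log2FC 1.78 ± 0.09). In all 3 genes the 4 libraries at 2 h were close to each other and well clear of the 0 h range. Mical2, an enzyme that disassembles actin filaments and activates an SRF cofactor, had 124 to 155 and 378 to 483 (log2FC 1.74 ± 0.11), with its lowest value at 2 h in replicate 3. Vcl, the adhesion protein vinculin, had 178 to 225 and 431 to 505, and Acta1, skeletal muscle actin, had 3.98 to 8.36 and 35.2 to 48.2. Acta1 and Vcl were chosen after their values were seen, because their promoters are printed next. Of the 9 calls, 8 held without replicate 3.

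The stretch of 250 bases before the transcription start was available from RefSeq (GRCm38.p6) for 232 of the 307 genes called higher, 187 of the 231 called lower and 7891 of all 9726 tested. A CArG box was found there, on either strand, in 9 of the 232 (3.88%), 1 of the 187 (0.535%) and 110 of the 7891 (1.39%). The AP-1 motif TGANTCA was in 7.33%, 7.49% and 5.4% of the 3 sets, the CRE motif TGACGTCA in 3.88%, 4.28% and 3.21%, and the E-box CACGTG in 12.5%, 8.02% and 10.5%. Where a gene had several such stretches, a motif in any of them counted. These shares are descriptions, matches of different motifs may overlap, and a match is not a binding site. The CArG boxes of Srf and of 3 called genes of the actin list are printed here to show the letters behind the count. Only stretches that hold a box are printed, and none was found for Acta2, Pdlim5 and Mical2, also called in that list. Capitals mark the CArG boxes, and no AP-1 motif or E-box was found in these 4 stretches. The Srf stretch is chr17:46556163-46556412 (minus strand), that of Lima1 chr15:99820150-99820399 (minus), that of Vcl chr14:20929148-20929397 (plus) and that of Acta1 chr8:123894776-123895025 (minus).
Srf: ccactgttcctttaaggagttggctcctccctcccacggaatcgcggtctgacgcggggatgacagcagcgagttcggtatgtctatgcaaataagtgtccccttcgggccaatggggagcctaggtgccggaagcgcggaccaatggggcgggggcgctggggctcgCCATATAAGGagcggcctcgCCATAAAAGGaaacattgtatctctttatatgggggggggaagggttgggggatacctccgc
Lima1: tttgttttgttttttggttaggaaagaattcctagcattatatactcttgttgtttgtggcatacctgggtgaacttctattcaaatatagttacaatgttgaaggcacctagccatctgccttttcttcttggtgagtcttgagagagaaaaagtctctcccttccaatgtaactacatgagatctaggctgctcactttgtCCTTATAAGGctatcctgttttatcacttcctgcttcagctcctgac
Vcl: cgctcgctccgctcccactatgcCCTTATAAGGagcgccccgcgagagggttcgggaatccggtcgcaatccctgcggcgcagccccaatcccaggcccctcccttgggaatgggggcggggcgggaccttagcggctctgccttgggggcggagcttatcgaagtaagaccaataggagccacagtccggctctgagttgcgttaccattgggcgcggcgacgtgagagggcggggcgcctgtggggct
Acta1: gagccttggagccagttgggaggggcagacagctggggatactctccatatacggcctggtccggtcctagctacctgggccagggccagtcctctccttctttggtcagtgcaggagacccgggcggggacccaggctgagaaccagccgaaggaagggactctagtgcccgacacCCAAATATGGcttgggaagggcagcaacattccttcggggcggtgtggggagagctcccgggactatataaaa
The Srf stretch holds 2 CArG boxes, set close together, and each of the others holds 1.

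Genes of adhesion and of the mechanical response changed only in part, and their counts stand against 3.16% called higher of all tested genes. Of 16 tested YAP and TEAD targets, 3 were higher: Ctgf, a matricellular protein (71.7 to 90.3 at 0 h, 274 to 347 at 2 h, log2FC 1.90 ± 0.10), Ankrd1 (2.23 to 11.2 and 13 to 21.3) and the kinase Nuak2 (32.3 to 42.3 and 67.7 to 103). Of 18 integrin and focal adhesion genes 1 was higher (5.56%), the adaptor Tns3 (log2FC 1.28 ± 0.11). Of 11 tubulins 2 were higher, Tubb6 (385 to 399.9 at 0 h and 1068 to 1121 at 2 h, log2FC 1.48 ± 0.07) and Tuba1c (177 to 255 and 517 to 639, log2FC 1.28 ± 0.10). Near-identical copies of some actin and tubulin genes exist, so their tags may be shared between copies.

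Genes that act at the cell surface and in the matrix rose in a few large steps. Plaur, the receptor of the protease urokinase, had 123 to 136 at 0 h and 460.0 to 519.8 at 2 h (log2FC 1.91 ± 0.09), and Timp1, an inhibitor of matrix metalloproteinases, had 427 to 503 and 929 to 1035 (log2FC 1.05 ± 0.08). These were among the 3 called, all higher, of 12 tested matrix enzymes and protease regulators (25%, against 3.16% of all tested genes). Tnfrsf12a, the receptor of the cytokine TWEAK, had the smallest adjusted p of all tested genes, with 321, 355, 270 and 340 at 0 h and 2509, 2473, 2225 and 2527 at 2 h (log2FC 2.92 ± 0.08, adjusted p = 9.1e-25, edgeR). Epha2, an ephrin receptor, was the 1 of 16 receptor tyrosine kinases called (log2FC 1.86 ± 0.15), or 6.25% against 5.53% of all tested genes. Its values at 2 h were 237, 243, 159 and 272, with replicate 3 lowest but above the 53.5 to 70.2 of 0 h. Of 23 tested matrix proteins and collagens, Mgp, a small matrix protein that restrains calcification (79.2 to 83.6 at 0 h, 322 to 414 at 2 h), and Thbs1 (141 to 165 and 340 to 398) were higher, and no collagen was called.

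Several receptors for nucleotides, adenosine and lipids changed in both directions. P2ry2, a receptor for extracellular ATP and UTP, had 64.1, 81.3, 71.3 and 80.0 at 0 h and 444, 412, 351 and 396 at 2 h (log2FC 2.44 ± 0.11, adjusted p = 2.2e-19, edgeR). Adora2b, an adenosine receptor coupled to cAMP, had 35.7, 19.1, 35.6 and 36 at 0 h and 144, 159, 156 and 150 at 2 h (log2FC 2.26 ± 0.16). Ptger4, a prostaglandin E2 receptor, had 13.6 to 20.1 and 66.3 to 76.0, and Ptgs2, the cyclooxygenase that makes prostaglandin precursors, had 5.57 to 12.8 and 31.6 to 40.4. S1pr3, a sphingosine-1-phosphate receptor, was higher (log2FC 1.12 ± 0.11), whereas its paralog S1pr1 (13.4 to 24.8 at 0 h and 7.42 to 11.6 at 2 h, log2FC -1.14 ± 0.29) and the vasoconstrictor gene Edn1 (10.03 to 15.05 and 4.21 to 7.85) were lower. Of 19 tested genes in the list of cAMP, calcineurin and GPCR signalling, 3 were higher (15.8%) and 2 lower (10.5%). The shares of all tested genes were 3.16% and 2.38%. P2ry2 and Ptgs2 are not in this list, whose median log2FC was -0.37.

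Among 15 tested NF-kB targets and chemokines 4 were higher (26.7%, against 3.16% of all tested genes) and none was lower. Their median log2FC was 0.14, and 11 were not called. Ccl2, a chemokine that attracts monocytes, had 37.3, 44.6, 25.6 and 35.2 at 0 h and 338, 404, 471 and 413 at 2 h (log2FC 3.48 ± 0.14, adjusted p = 6.7e-20, edgeR). Ccl7, its neighbour in the same chemokine cluster, had 64.6 to 105 and 342 to 507 (log2FC 2.42 ± 0.15). None of 11 interferon-stimulated genes was called, against 5.53% of all tested genes.

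**Figure D2:**
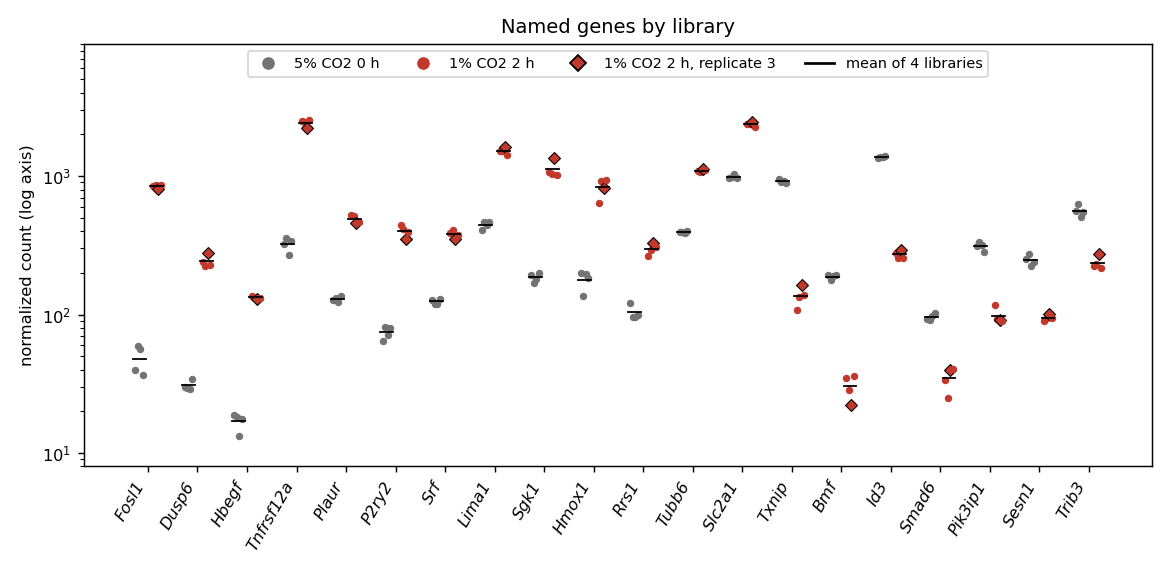
Normalized counts (vertical log axis) of 20 named genes in each of the 4 libraries at 0 h (grey) and at 2 h of 1% CO2 (red), with black bars for the mean of 4 libraries and diamonds for replicate 3 of 2 h. For every gene shown, the red points do not overlap the grey ones, which the naming rule required of the genes with the largest changes. Replicate 3 lies highest or lowest of the red points in several genes, such as Sgk1 and Bmf.

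Genes of cell growth rose by smaller and more even steps. The nucleolar list, proteins that process ribosomal RNA and assemble ribosomes, had 10 of 40 tested members higher (25%, against 3.16% of all tested genes). None was lower, and the lowest log2FC was -0.11. At an adjusted p of at most 0.05 whatever their fold, 33 were higher, against 16% of all tested genes. Rrs1 had 122, 96.4, 95.8 and 99.98 at 0 h and 263, 295, 326 and 307 at 2 h (log2FC 1.51 ± 0.10, adjusted p = 3.0e-14, edgeR). Nop2, an RNA methyltransferase, had 148 to 154 and 303 to 368 (log2FC 1.22 ± 0.09), and Ppan had 197 to 234 and 431 to 508 (log2FC 1.12 ± 0.09). None of 23 tested cytosolic ribosomal protein genes was called, with a median log2FC of 0. Their range was -0.30 to 0.16. Of the S phase and G1 list, Ccnd1, cyclin D1 (228 to 310.0 at 0 h, 408 to 603 at 2 h, lowest in replicate 3), and Cdt1, a factor that licenses replication origins (38.4 to 44.6 and 81.8 to 104), were the 2 of 21 called. No gene of 21 tested mitosis genes was called, against 5.53% of all tested genes, and their median log2FC was -0.25.

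Glucose uptake and the first steps of glucose use were represented by 3 of 19 tested genes (15.8% higher, against 3.16% of all tested genes). Slc2a1, the glucose transporter GLUT1, had 966, 985, 1035 and 970 at 0 h and 2395, 2382, 2478 and 2275 at 2 h (log2FC 1.27 ± 0.07, adjusted p = 7.1e-17, edgeR). Hk2, hexokinase 2, had 34.5 to 54.2 and 132 to 147 (log2FC 1.57 ± 0.13), and Pfkfb4, a regulator of phosphofructokinase, had 44.8 to 65.3 and 118 to 144 (log2FC 1.25 ± 0.12). Angptl4, a secreted inhibitor of lipoprotein lipase, had 13.4, 18.3, 5.57 and 10.4 at 0 h and 68.4, 73.7, 77.0 and 95.4 at 2 h (log2FC 2.64 ± 0.21). Of 16 further HIF-1 targets only Hmox1 was called (6.25%, against 5.53% of all tested genes). Of the sterol genes, 8 of 20 in cholesterol synthesis were higher and none was lower, while Mylip, a ubiquitin ligase of sterol uptake, was lower (35.1 to 45.1 and 12.3 to 26.0).

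Stress pathways responded unequally. Hmox1, heme oxygenase 1 and a target of NRF2 as well as of HIF-1, had 201, 137, 196 and 182 at 0 h and 638, 928, 814 and 944 at 2 h (log2FC 2.21 ± 0.15, adjusted p = 2.9e-11, edgeR). Of 16 NRF2 targets 4 were higher (25%, against 3.16% of all tested genes). Among them were Osgin1 (16.7 to 20.1 and 34.3 to 57.2) and Txnrd1, thioredoxin reductase (293 to 328 and 547 to 790). The log2FC of Txnrd1 was 1.04 with replicate 3 and 0.92 without it. Heat shock and chaperone genes were higher in 4 of 16 tested (25%, against 3.16% of all tested genes). At an adjusted p of at most 0.05 whatever their fold, 11 were higher, against 16% of all tested genes. Dnajb1 had 194 to 223 and 474 to 694 (log2FC 1.46 ± 0.13), Hsph1 had 432 to 452 and 907 to 1141, and Hsp90aa1 had 52 to 96.9 and 121 to 242, the last with its highest value in replicate 3 and with related copies in the genome. None of 15 genes of the unfolded protein response was called, with log2FC from -0.29 to 0.28. In the integrated stress response list of 22 tested genes, the cystine transporter Slc7a11 was higher at low counts (3.20 to 5.57 and 6.31 to 13), and Trib3 and Ppp1r15a were lower. Ppp1r15a, the phosphatase subunit GADD34, had 126 to 142 and 50.1 to 74.7, a log2FC of -1.03 that was -0.92 without replicate 3.

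Survival genes of the BCL2 family moved in opposite directions. Bcl2l1, which encodes the anti-apoptotic BCL-XL, had 280, 296, 271 and 278 at 0 h and 791, 822, 758 and 810 at 2 h (log2FC 1.5 ± 0.08, adjusted p = 4.0e-17, edgeR). Bmf, a pro-apoptotic member with a BH3 domain, had 192, 176, 189 and 194 at 0 h and 34.7, 28.3, 22.3 and 35.9 at 2 h (log2FC -2.65 ± 0.14, adjusted p = 1.4e-17). No other of the 14 tested members was called. Among p53 targets and GADD45 genes, Plk3 (44.6 to 50.2 at 0 h, 167 to 202 at 2 h) and the TRAIL receptor Tnfrsf10b (52.4 to 60.6 and 134 to 151) were higher, whereas Gadd45b, a stress protein, was lower (99.2 to 134 and 49.4 to 52.9, log2FC -1.27 ± 0.14).

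Txnip, an alpha-arrestin that restrains glucose uptake, had the largest fall among genes with a mean of at least 50. Its normalized counts were 960, 904, 921 and 893 at 0 h and 107, 133, 163 and 138 at 2 h (log2FC -2.76 ± 0.12, adjusted p = 4.1e-20, edgeR). Every library at 2 h was thus below 20% of the lowest value at 0 h. Its paralog Arrdc3, at low counts, was on the other side (11.1 to 15.9 and 23.6 to 36.2), with a log2FC of 1.00 at the threshold that was 0.87 without replicate 3.

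Genes that growth factor withdrawal and FOXO factors raise were lower more often than higher. Of 21 tested members, 5 were called lower and 2 were called higher, against 2.38% and 3.16% of all genes. At an adjusted p of at most 0.05 whatever their fold, 11 were lower and 5 higher, against 12.4% and 16% of all genes. The list's median log2FC was -0.42. Pik3ip1, an inhibitor of PI3K, had 313, 332, 316 and 285 at 0 h and 117, 93.1, 90.9 and 89.8 at 2 h (log2FC -1.67 ± 0.11, adjusted p = 4.0e-15, edgeR). Sesn1, a sestrin that restrains mTORC1, had 252, 273, 225 and 241 at 0 h and 89.4, 94.7, 101 and 94.2 at 2 h (log2FC -1.38 ± 0.10). Trib3, a pseudokinase that inhibits AKT, had 559, 630, 510 and 553 at 0 h and 223, 233, 275 and 218 at 2 h (log2FC -1.25 ± 0.11). The other called falls, chosen after their values were seen, were Ccng2, an atypical cyclin (log2FC -1.38), and Cdkn1b, the cell cycle inhibitor p27 (-1.06). On the other side stood Sgk1, a kinase that phosphorylates FOXO factors, with 192, 170, 180 and 198 at 0 h and 1075, 1041, 1348 and 1017 at 2 h (log2FC 2.59 ± 0.10), and Trib1 (184 to 205 and 401 to 464).

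ID proteins block bHLH transcription factors and are targets of BMP signalling, and of the 4 tested ID genes Id3 and Id2 fell. Id3 had 1349, 1370, 1381 and 1402 at 0 h and 280, 256, 292 and 258 at 2 h (log2FC -2.34 ± 0.11, adjusted p = 3.8e-19, edgeR), and Id2 had 190, 189, 214 and 177 at 0 h and 67.3, 57.5, 97.4 and 69.6 at 2 h (log2FC -1.40 ± 0.13). Smad6, an inhibitory SMAD that BMP induces, had 93.1, 90.8, 98.0 and 102 at 0 h and 33.7, 25.1, 39.9 and 40.4 at 2 h (log2FC -1.48 ± 0.16). Atoh8, a bHLH factor, had 175, 176, 221 and 181 at 0 h and 55.8, 61.5, 38 and 60.6 at 2 h (log2FC -1.79 ± 0.16). No library at 2 h reached the 0 h range for these 4 genes, but the rule that named them for large changes required this. Id1, named after its values were seen, was on the other side but under the fold threshold (log2FC 0.60 ± 0.08, adjusted p = 4.2e-07, edgeR), and Id4 did not pass the test (log2FC -0.62 ± 0.37). Of the 11 tested BMP and ID genes, 2 were lower (Id3 and Id2) and 1 was higher.

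Smaller falls were spread over other functions. Dbp, a clock-controlled transcription factor, had 309.9 to 394 at 0 h and 119.9 to 151 at 2 h (log2FC -1.45 ± 0.10), whereas Per2, of the core clock, was higher at low counts (20.1 to 26.3 and 45.4 to 61.7). Efna4, an ephrin, had 62.4 to 68.0 and 14.7 to 24.3 (log2FC -1.77 ± 0.21), and Wnt9a, a WNT ligand, had 31.2 to 50.2 and 7.29 to 15.8 (log2FC -1.75 ± 0.23), while the receptor Notch1 was higher (58.5 to 77.3 and 149 to 170). E2f7, a repressor of E2F targets, had 96.4 to 117 and 32.5 to 47.3, and Inha, the inhibin alpha subunit, had 49.6 to 64.8 and 15.8 to 29.2. The MYC antagonists Mxd1 (8.92 to 16.0 and 1.62 to 8.98) and Mxd3 (13.4 to 29.5 and 4.64 to 16.2) were called lower from low and overlapping values, and without replicate 3 neither passed both thresholds. In polyamine metabolism, Azin1, an antizyme inhibitor, was higher (51.2 to 81.4 and 139 to 224, the top value in replicate 3) and the spermine synthase gene Sms was lower (10.4 to 15.05 and 4.49 to 8.10), with a log2FC of -0.94 without replicate 3.

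Transporters and enzymes of bicarbonate and protons, the machinery that acts most directly on CO2, could be followed only in part. Of 34 listed genes 15 were in the table, and Slc4a4, Slc16a1, Car2 and Car9 were among those that were not. Of the 15 tested members none was higher and 1 was lower (6.67%), against 3.16% and 2.38% of all tested genes. The median log2FC was -0.20. Slc9a5, a sodium-proton exchanger, had 37.9, 39.8, 37.9 and 56 at 0 h and 14.7, 31.6, 13.9 and 17.95 at 2 h (log2FC -1.09 ± 0.21, and -0.93 without replicate 3). Slc4a7, a sodium-bicarbonate cotransporter chosen after its values were seen, had a log2FC of 1.00 but an adjusted p of 0.051 (edgeR) and was not called. No member of 21 tested lysosome and proton pump genes and of 14 mRNA decay factors was called, against 5.53% of all tested genes.

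**Figure D3:**
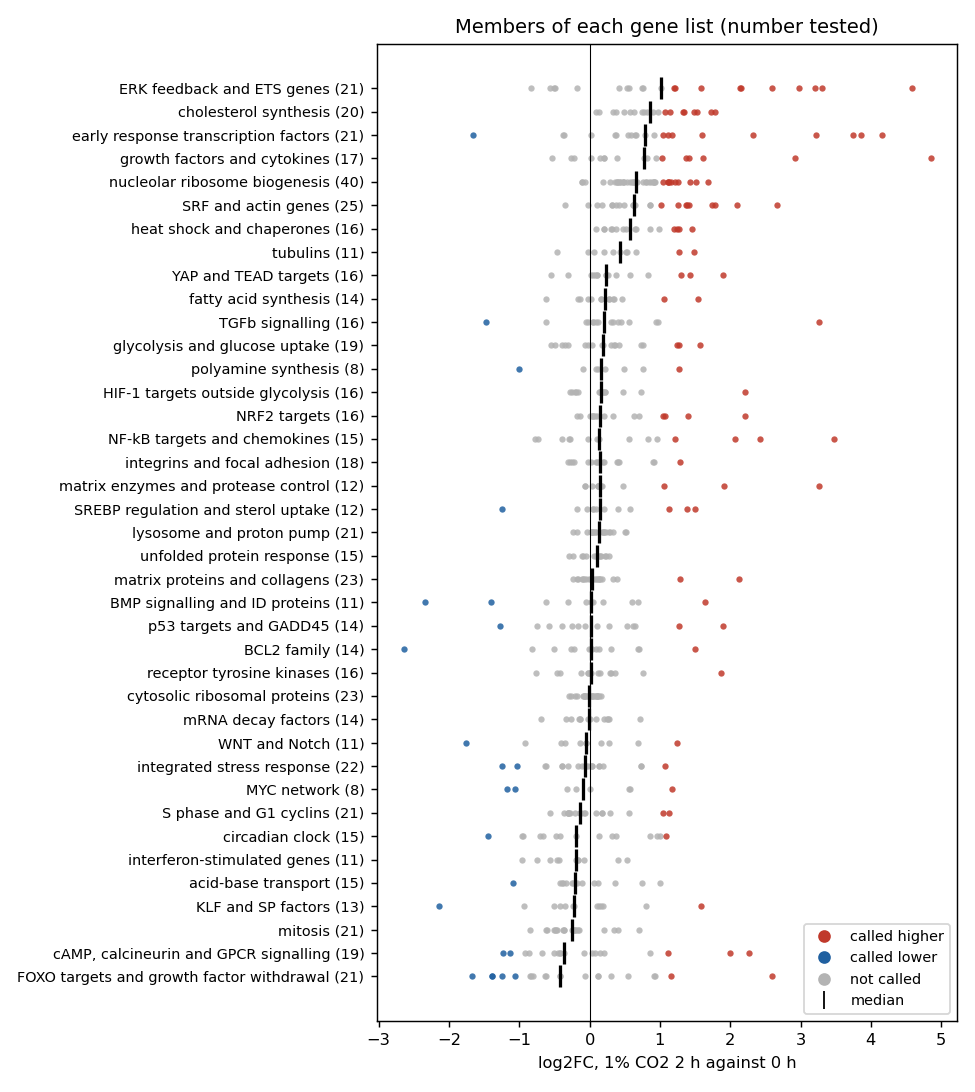
Log2FC of each tested member (points) of the 39 gene lists with at least 8 tested members, markers and reference genes left out, at 2 h of 1% CO2 against 0 h, with the list's median as a black bar and its number of tested genes in parentheses. Red and blue points are members called higher and lower. Lists are ordered by median, with ERK feedback and ETS genes at the top and FOXO targets at the bottom.

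Some of the named genes had moved on by 4 h. The 4 h and 2 h libraries of 1% CO2 differed in 129 of 9726 genes (1.33%) by the same thresholds, a comparison that shares the 2 h libraries with the one against 0 h. Arc fell from 127 ± 10.1 (SD, n = 4) at 2 h to 23.4 ± 6.13 at 4 h (log2 difference -2.39 ± 0.18 SE, adjusted p = 4.9e-12, edgeR), toward its 9.25 ± 1.19 at 0 h. Srf fell from 379 ± 23.9 to 147 ± 24.2 (-1.36 ± 0.11), next to 124 ± 5.79 at 0 h, and Egr2 from 141 ± 25.9 to 43.9 ± 7.99 (-1.68 ± 0.16). Hmox1 fell from 831 ± 141 to 325 ± 39.3, Plk3 from 179 ± 16.1 to 87.6 ± 9.82 and Dnajb1 from 566 ± 92.4 to 277 ± 27.1. Other genes had not reached their 4 h level at 2 h. Angptl4 went from 78.6 ± 11.7 to 247 ± 34.9 (1.65 ± 0.14, adjusted p = 1.4e-10), Etv5 from 35.6 ± 8.72 to 93.4 ± 17.3 (1.42 ± 0.19) and Elovl6, a fatty acid elongase, from 59.2 ± 7.97 to 127 ± 23.2 (1.1 ± 0.16), with 27.4 ± 8.31 at 0 h. Fosl1 (842 ± 24.7 and 735 ± 43.5), Txnip (135 ± 22.9 and 189 ± 32.5) and Id3 (271 ± 17.5 and 335 ± 41.3) were not called between the 2 times.

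The alkaline control shows which of these levels were also seen with NaOH. At 2 h, 633 of 9726 genes (6.51%) differed between 1% CO2 and NaOH, a comparison that shares the 2 h libraries of 1% CO2. Some genes that were higher at 2 h of 1% CO2 were higher still with NaOH. Of the early factors, Fosl1 was at 842 ± 24.7 at 1% CO2 and 2315 ± 120 with NaOH, Srf at 379 ± 23.9 and 915 ± 76.7, and Maff at 86.8 ± 7.64 and 717 ± 118. Of the actin genes, Tagln was at 469.5 ± 41.2 and 1040 ± 80.3. Lima1 (1526 ± 80.0 and 2064 ± 288) and Mical2 (454 ± 50.5 and 725 ± 48.7) were also higher with NaOH. Their log2 differences, -0.44 ± 0.09 and -0.68 ± 0.10 (SE), were under the fold threshold (adjusted p = 0.00021 and 3.4e-06, edgeR). Ctgf was at 304 ± 33.5 at 1% CO2 and 7134 ± 365 with NaOH (log2 difference -4.55 ± 0.10, adjusted p = 2.0e-29, edgeR), Hbegf at 133 ± 2.91 and 1271 ± 115, and Acta1 at 42 ± 5.63 and 267 ± 27.8. Gadd45b and Fosb were on opposite sides of their 0 h level, at 51.7 ± 1.59 and 1.70 ± 0.906 at 1% CO2 and at 1802 ± 270 and 686 ± 58.4 with NaOH. Conversely, Angptl4 (78.6 ± 11.7 and 21.3 ± 7.04), Mgp (360 ± 39.0 and 78.1 ± 9.19), P2ry2 (401 ± 38.5 and 174 ± 28.5) and Etv5 (35.6 ± 8.72 and 5.20 ± 4.5) were higher at 1% CO2. The BMP-linked genes were lower at 1% CO2. Id3 was at 271 ± 17.5 against 1101 ± 178 with NaOH (-2.02 ± 0.11, adjusted p = 1.7e-17), Id2 at 72.9 ± 17.1 against 206 ± 19.1, Smad6 at 34.8 ± 7.13 against 174 ± 15 and Atoh8 at 54 ± 10.9 against 142 ± 18.3. Txnip, in contrast, was still lower with NaOH (28.9 ± 6.13) than at 1% CO2 (135 ± 22.9). Sgk1, Rrs1, Slc2a1 and Myc were not called between the treatments, with log2 differences of 0.06 ± 0.09, -0.02 ± 0.10, -0.11 ± 0.07 and -0.08 ± 0.09 (SE).

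Replicate 3 of 1% CO2 at 2 h was then described gene by gene. Its SD of 0.33 was the largest of the 20 libraries, followed by the second NaOH library of 2 h (0.273) and the second 1% CO2 library of 4 h (0.272). In 11 genes it lay at least 1 above the other 3 libraries on the log2 scale and in 29 at least 1 below, against 1 to 3 above and 2 to 8 below for the other libraries of the group. At a difference of at least 0.5, it had 244 genes above and 376 below. In 309 of 6165 genes (5.01%) it was past Dixon's critical value for an outlier among 4, whereas each of the other 3 libraries was so in 47 to 52 genes. The chi-square per degree of freedom of its counts against the other libraries was 9.96 to 10.6, and 2.37 to 3.5 between the others. With a prior count of 0.5, or a minimum mean of 20 or 100, the SD of replicate 3 was 0.326 to 0.353.

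**Figure D4:**
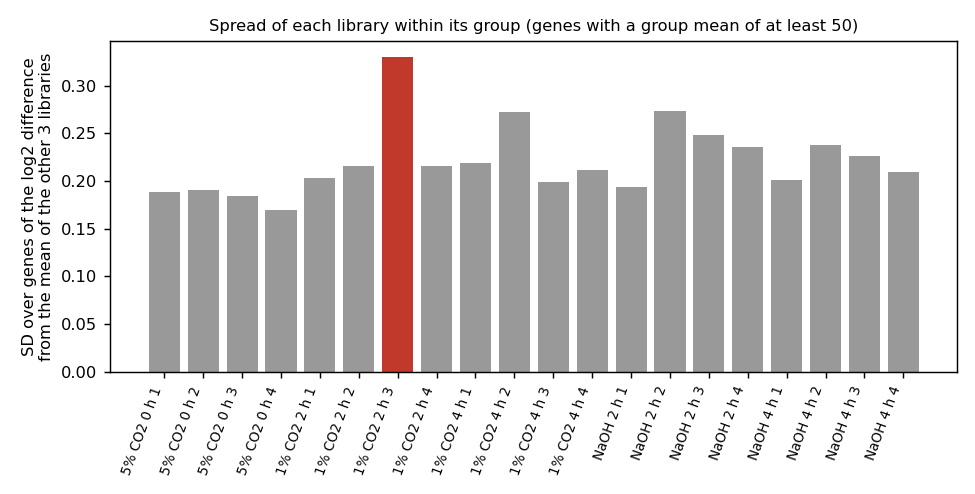
SD over genes of each library's log2 difference from the mean of the other 3 libraries of its group (bars, from 0), for genes with a group mean of at least 50. Replicate 3 of 1% CO2 at 2 h (red) has 0.33, and the other 19 libraries have 0.17 to 0.273.

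Replicate 3 had moved in the direction of the response as the other libraries had, and its departures included genes that were not called. Along the direction from the 0 h mean to the mean of the other 3 libraries of 2 h, it stood at 0.944 of the way. Replicates 1, 2 and 4 stood at 0.899 to 0.912, but the mean they were set against contains replicate 3. These values are therefore not like for like. Along the direction to the 4 h mean of 1% CO2, the same for all, replicate 3 stood at 0.753 and the others at 0.671 to 0.693. Hspg2, the basement membrane protein perlecan, had 1143, 1113, 459 and 1063 in the 4 libraries of 2 h and 1081 to 1120 at 0 h. Cc2d1a had 105, 113, 38 and 117 against 105 to 122 at 0 h. In both genes the 3 other libraries of 2 h were within or close to the 0 h range. Rplp0, a ribosomal protein often used as a reference, had 7051, 6039, 12180 and 6885, Rpl41 had 31180, 25660, 13370 and 34390, and the proteasome subunit gene Psma3 had 74.7, 91.5, 196 and 93.1. The other reference genes named by rule did not stand out: Tbp had 80.7 in replicate 3 and 65.1 to 85 in the others, and Hprt had 98.3 and 89.4 to 98.7.

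Some abundant genes with many near-identical copies jumped between high and near-absent levels in several libraries. Rps2 had 9084, 4668, 48.2 and 9212 at 2 h, but also 8523, 56.6, 8276 and 9163 at 0 h. Gapdh had 31.6, 40.5, 1423 and 1365 at 2 h and 1511, 37.5, 31.2 and 23.2 at 0 h. Neither is specific to replicate 3. Values of Rps2, Gapdh, Rplp0, Rpl41 and Psma3 are uncertain where tags could be shared with such copies, and how those tags were assigned was not tested.

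The departures of replicate 3 went with base composition. Of the 6165 genes, 5951 (96.5%) were matched to a transcript of GENCODE M21. Across these genes, which are not independent replicates, its departure had a correlation of -0.44 with the GC content of the last 500 bases, against 0.13 to 0.3 for the other 3 libraries, and of 0.015 with log transcript length. Genes under 40% GC (n = 1527) had a median departure of 0.18 and genes of 55% or more (n = 715) one of -0.23. Each of the other 3 was set against a mean that contains replicate 3, so an opposite trend in them follows in part from the calculation. The change from 0 h to 2 h itself had a correlation of -0.15 with this GC content with all 4 libraries and of -0.067 without replicate 3. The departure also had a correlation of 0.548 with that of replicate 2 of 1% CO2 at 4 h. The -0.28 to -0.291 of the other libraries of 2 h are likewise not independent of it. The part of base composition in single calls was not tested.

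**Figure D5:**
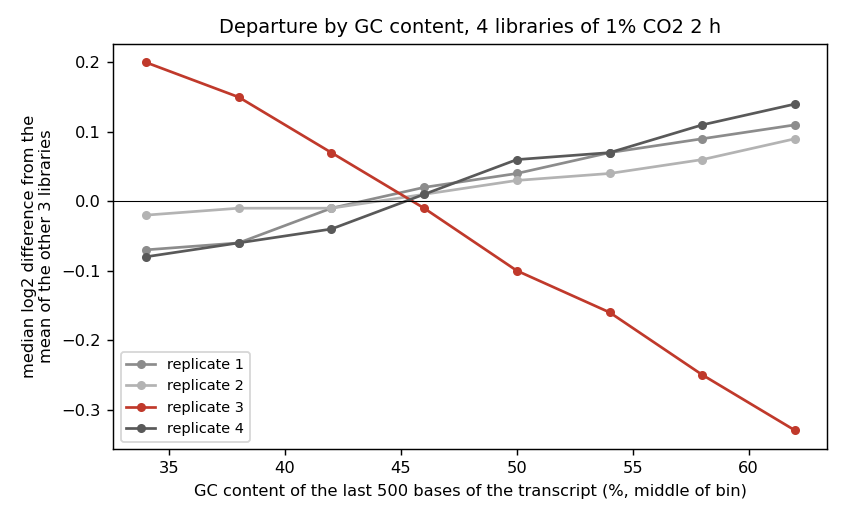
Median log2 difference of each library of 1% CO2 at 2 h from the mean of the other 3 (vertical axis) by GC content of the last 500 transcript bases (horizontal axis, middle of bin in percent). The line of replicate 3 (red) falls from 0.20 in the lowest bin (n = 788 genes) to -0.33 in the highest (n = 92), while the lines of the other 3 (greys), whose reference mean contains replicate 3, rise.

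Most of the calls that rested on replicate 3 fell short of the fold threshold without it. Leaving it out removed 76 of the 538 calls and added 65, and leaving out any other of the 8 libraries removed 45 to 78 and added 38 to 69. Of the 76 calls removed, 57 had a log2FC under 1 in size without it, and 62 had a mean under 50 in the higher group. Among the genes described above, Arrdc3, Txnrd1, Ppp1r15a, Slc9a5, Sms, Mxd1 and Mxd3 were called with replicate 3 and not without it. All other genes described above that were called at 2 h, such as Fosl1, Srf, Txnip, Bmf and Id3, kept their call without it.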

How the data were processed

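RNA was sequenced as bulk MARS-seq with 75-base kits. The authors trimmed reads with cutadapt v1.15, aligned them to mm10 with STAR (v2.5.2b in their methods, 2.4.2a per the submitters' notes) and, with HTSeq-count v0.9.1 inside the UTAP v1.10 pipeline, obtained UMI counts for RefSeq genes lengthened by 1000 bases on the 5′ side and by 100 on the 3′ side. The analysis used these deposited counts. A deposited normalized signal that the authors made with DESeq2 v1.16.1 size factors was not used. Tags from the 3′ end do not scale with transcript length.

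Counts were scaled with TMM factors and tested in edgeR 4.0.16 (R 4.3.3, limma 3.58.1) with 1 robust quasi-likelihood model of all 20 libraries in 5 groups, for the 9726 genes with a mean of at least 5. The SE is the log2FC divided by the square root of F. The common dispersion was 0.0103. The steps were tested on simulated data. Alternatives were library size alone, DESeq2 size factors in edgeR, DESeq2 1.42.0, other count filters, 8 libraries only, glmTreat, a replicate block and leaving out each library. Log2 values for the spread of libraries used a prior count of 2. The members, the 48 gene lists and the tests were chosen with earlier results of these data known. Of 872 genes listed, 708 were matched in the table. By rule, named genes were the 15 with the largest change in each direction (mean of at least 50, no overlap, no Riken, Gm or LOC symbol), the 3 members with the smallest adjusted p of each list and those in its minority direction, genes farthest out in replicate 3, and 3 reference genes. Not all of them are printed, and some are not reported here. Promoter sequences are those of RefSeq (GRCm38.p6).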

Additional observations from a re-analysis of the deposited data

Results flagged for a closer look

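For the 111 genes looked at one by one, each group of 4 libraries (222 sets) was searched for a library whose gap to the nearest other exceeded Dixon's critical value as a share of the group's range. In sets not chosen for such a gap, chance flags about 1 in 20. Here 22 were found, 11 at 2 h and 11 at 0 h, and that rate does not apply to Cc2d1a, Hspg2, Psma3, Gapdh and Rps2, which were named for lying far out in replicate 3. Replicate 3 of 1% CO2 at 2 h was the library in 9 of them. It was high in Azin1 (224, others 139 to 142), Errfi1 (237, others 147 to 161), Psma3 (196, others 74.7 to 93.1) and Rplp0 (12200, others 6040 to 7050), and low in Cc2d1a (38, others 105 to 117), Fosl1 (805, others 850 to 856), Hspg2 (459, others 1060 to 1140), Mical2 (378, others 472 to 483) and Nop2 (303, others 363 to 368). For Fosl1, Mical2 and Nop2 the gap is small beside the change from 0 h.

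Other libraries of 2 h that lay apart were replicate 1 in Pik3ip1 (117) and S1pr1 (11.6). At 0 h they were replicate 1 in Efna4 (68), Gapdh (1510) and Rrs1 (122), replicate 2 in Adora2b (19.1), Rps2 (56.6) and Tns3 (131), replicate 3 in Atoh8 (221) and Gadd45b (99.2), and replicate 4 in Insig1 (314), Mgp (79.2) and Slc9a5 (56).

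Between 2 h and 4 h of 1% CO2, 13 of the genes differed by the thresholds of the main comparison in edgeR's test. Lower at 4 h were Egr3 (log2 difference -2.44), Arc (-2.39), Egr2 (-1.68), Srf (-1.36), Hmox1 (-1.35), Plk3 (-1.04) and Dnajb1 (-1.03). Higher at 4 h were Angptl4 (1.65), Sms (1.57), Etv5 (1.42), Etv4 (1.26), Elovl6 (1.1) and Wnt9a (1.02). Sms and Wnt9a had been called lower at 2 h.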

How the results depend on the processing

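Against 307 genes called higher and 231 lower, DESeq2 at the study's settings gave 239 and 133, a minimum mean of 20 gave 237 and 93, and glmTreat, which tests against a fold of 2, gave 95 and 21. The share of higher calls was 57.1% with all steps as described, 48.6% without TMM factors (269 higher, 285 lower), 71.8% at a minimum mean of 20 and 81.9% with glmTreat. Leaving out 1 library at a time gave 297 to 320 higher and 200 to 242 lower. The replicate numbers are not stated to pair the libraries, and deviations of same-numbered libraries of 0 h and 2 h had correlations of -0.07 to 0.10, with 2 of 4 libraries closest to their own number. With the replicate block, 300 and 229 genes were called over 20 libraries, and 301 and 243 over the 8. Of 111 genes looked at one by one, 44 lost their call with glmTreat and 12 with DESeq2. None of those called changed direction. Genes not called did so around 0. Leaving out 1 library at a time, the log2FC was -0.38 to 0.01 for Cc2d1a, -0.31 to 0.02 for Hspg2, -0.16 to 0.47 for Psma3, -0.23 to 0.16 for Rpl41, -0.20 to 0.19 for Rplp0 and -0.58 to 0.24 for Rps2. Without replicate 3 of 2 h the values were 0.01, 0.02, -0.16, 0.16, -0.20 and 0.24 in this order. Rps2 was also at 0.14 and 0.03 with the replicate block (20 and 8 libraries) and at 0.05 without replicate 4 of 0 h, Rplp0 at -0.01 without replicate 1 of 0 h, Psma3 at -0.02 without replicate 3 of 0 h, and Hprt at -0.01 without replicate 2 of 0 h and at -0.02 without TMM factors. The cause of these shifts was not tested. Of the 231 lower calls 138 had a mean under 20, and of the 307 higher calls 70 did. The part of depth in these calls was not tested.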

Other observations

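Cirbp, a cold-inducible RNA-binding protein, was not called at 2 h because its fold was under the threshold, although its adjusted p was small. Its normalized counts were 238, 241, 267 and 273 at 0 h and 122, 147, 108 and 148 at 2 h (log2FC -0.95 ± 0.11, adjusted p = 1.9e-08 from edgeR's test). At 4 h of 1% CO2 it was at 35.0 ± 5.65 (SD, n = 4), a further log2 difference of -1.91 ± 0.15 (SE), and with NaOH at 2 h it was at 187 ± 20.4. Its relative Rbm3 had 25.5 to 33.6 at 0 h and 18.9 to 32.5 at 2 h. Krt14, a keratin of epithelial cells that this line also expressed, had 760 to 888 at 0 h and 526 to 609 at 2 h (log2FC -0.59 ± 0.08), 236 on average at 4 h and 891 with NaOH at 2 h. Cirbp, Rbm3 and Krt14 are named here for values already known.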
